A study of Arabidopsis thaliana with 76 samples.

Results

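The cytosolic, chloroplast, and mitochondrial HSP70 chaperones of *Arabidopsis* are followed here through 9 nuclear genes, fixed by locus, of the 33557 genes that each file lists. 5 of them encode cytosolic proteins (HSC70-1, HSC70-2, HSC70-3, HSP70, and HSP70-5), 2 encode chloroplast proteins (cpHSC70-1 and cpHSC70-2), and 2 encode mitochondrial proteins (mtHSC70-1 and mtHSC70-2). The luminal members of the endoplasmic reticulum were not taken among the 9, and neither was AT1G56410, a further gene of the HSP70 superfamily. These are listed with the partners below. An HSP70 protein binds exposed hydrophobic stretches of other proteins, holds them while ATP is bound and hydrolyzed, and releases them with the help of J-domain proteins and nucleotide exchange factors. In the cytosol some members are made at all times, and others are known for strong induction by heat, which acts through heat shock factors at heat shock elements (HSEs). In the chloroplast stroma and the mitochondrial matrix, HSP70s also take part in pulling in imported precursor proteins.

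The study asked how the time of day and signals from the chloroplast affect heat-associated transcripts, and it holds 76 RNA-seq libraries, each from a pool of 25 Col0 seedlings. Seedlings were grown in short days (8 h light and 16 h dark, 170 µmol light), and time is given as zeitgeber time (ZT), in hours from lights on. The samples of ZT1, ZT2, ZT4, and ZT8 were taken in the light, and those of ZT−4, ZT0, ZT12, and ZT16 in the dark. Libraries labelled *ss4-1*, a mutant line of STARCH SYNTHASE 4 (SS4), and wild-type (WT) libraries were made at constant 17°C, with 2 libraries per genotype at each of the 8 times. Libraries of *pgm*, which lacks plastidial phosphoglucomutase, of *ss3/ss4* (*ss3/4*), and of *ss3/ss4/pgm* (*ss3/4/pgm*) came from 17°C at ZT0 and ZT2, with 2 each. WT was also sampled at constant 27°C and constant 22°C, with 1 library per time and temperature. In liquid media, WT seedlings at 27°C or 22°C were treated at ZT−1 with 50 µM DBMIB, 30 µM DCMU, or a mock solution (ethanol). Others were left untreated, and all were sampled at ZT1 with 2 libraries each. DCMU and DBMIB block photosynthetic electron transport before and after the plastoquinone pool.

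The deposited values are raw counts of reads per gene in 60 libraries (3204754 to 19679912 counts per library, with a median of 9800430) and length-scaled TPM values in all 76. TPM divides by gene length and sums to an equal total per library, so it allows levels of different genes to be compared. Markers of green shoot tissue summed to 5793–35149 TPM (median 17439) and markers of root to 9.67–208.5 TPM (median 48.7), and 1 root marker (EXPA18) was at 0 in 1 library. In bulk seedlings, fewer cells of a type and less RNA per cell cannot be told apart. The label check was mixed. SS3 was at 5.88 and 6.91 TPM in *ss3/4* and at 5.37 and 7.17 TPM in *ss3/4/pgm*, against 34.2 and 30.3 TPM in WT (all at ZT0), and PGM was at 4.32 and 5.35 TPM in *pgm* and at 6.09 and 5.77 TPM in *ss3/4/pgm*, against 58.6 and 55.2 TPM in WT. At ZT2, SS4 had 14.5 and 14.7 TPM in the libraries labelled *ss4*, against 14.01 and 14.7 TPM in WT. It had 18.8 and 17.5 TPM in *ss3/4* but 7.74 and 10.2 TPM in *ss3/4/pgm*. At ZT0 it had 18.4 and 18.2 TPM in the libraries labelled *ss4*, against 21.5 and 20.4 TPM in WT. It had 16.1 and 13.97 TPM in *ss3/4* and 9.21 and 9.41 TPM in *ss3/4/pgm*. Libraries of *pgm*, not labelled as an *ss4* mutant, lay near *ss3/4/pgm*, at 10.3 and 8.81 TPM (ZT0) and 6.23 and 9.18 TPM (ZT2). The transcript therefore does not check this label. A count of the whole transcript does not show whether a functional protein can be made. In liquid culture the 2 libraries of each inhibitor label stood apart from each other, so their values are given one by one.

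In the TAIR10.1 annotation, the cytosolic genes lie at chr5:553745-556623 (HSC70-1, AT5G02500), chr5:550035-552827 (HSC70-2, AT5G02490), chr3:2902355-2905947 (HSC70-3, AT3G09440), chr3:3991117-3993886 (HSP70, AT3G12580), and chr1:5501966-5504535 (HSP70-5, AT1G16030), all on the minus strand. HSC70-1 and HSC70-2 are neighbors on chromosome 5. HSP70-5 has 1 exon and the other cytosolic genes have 2. The chloroplast pair lies at chr4:12589810-12593800 (cpHSC70-1, AT4G24280) and chr5:20303334-20306469 (cpHSC70-2, AT5G49910), on the plus strand with 8 exons each, and the mitochondrial pair lies at chr4:17824777-17828192 (mtHSC70-1, AT4G37910, minus strand) and chr5:2975436-2978750 (mtHSC70-2, AT5G09590, plus strand), with 6 exons each. Coding sequences of the cytosolic members were 73.9%–87.2% identical to each other, those of the chloroplast pair 85.2%, those of the mitochondrial pair 75.3%, and those from different compartments 60.9%–65.7%. The same stretch of coding sequence of the 5 cytosolic members (RefSeq, coding bases 301–390, or 298–387 in HSP70-5) is shown because it lets the reader see how far reads can tell these genes apart, with bases unlike HSC70-1 in capitals:
HSC70-1: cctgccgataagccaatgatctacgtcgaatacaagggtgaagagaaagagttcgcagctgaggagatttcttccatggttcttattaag
HSC70-2: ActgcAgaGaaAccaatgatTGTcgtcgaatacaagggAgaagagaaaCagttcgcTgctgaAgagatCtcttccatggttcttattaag
HSC70-3: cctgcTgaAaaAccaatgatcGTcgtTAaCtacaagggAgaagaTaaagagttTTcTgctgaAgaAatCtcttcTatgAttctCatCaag
HSP70: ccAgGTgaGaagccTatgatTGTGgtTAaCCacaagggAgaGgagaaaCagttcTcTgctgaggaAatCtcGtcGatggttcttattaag
HSP70-5: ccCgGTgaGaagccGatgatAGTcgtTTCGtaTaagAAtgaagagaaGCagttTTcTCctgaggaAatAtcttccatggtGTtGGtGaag
Of these 90 bases, 12 differed from HSC70-1 in HSC70-2, 20 in HSC70-3, 22 in HSP70, and 28 in HSP70-5. No 100-base window of 8 of the transcripts was found in the transcript of another gene. In mtHSC70-2, 295 of 2477 windows (11.9%) were shared with AT4G32208, so part of its reads may be split with that locus.

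HSEs are built from units of GAA or its complement TTC in alternating orientation, and HSFs bind best to at least 3 of them. A 3-unit element (GAA, TTC, and GAA, or TTC, GAA, and TTC, with any 2 bases between units, searched on both strands from 250 bases before to 50 bases after the gene start) was found in 3 of the 9 members, against 132 of 27443 windows of this length (0.481%). These 3 sites are shown because they are the members' own matches. HSC70-1, HSC70-2, and mtHSC70-2, whose mean was also highest at ZT2 at 17°C in WT, have none. All lie in the 5′ UTR of the TAIR10.1 models, and the element is in capitals:
HSC70-3 (chr3:2905902-2905914, minus strand): atcgaaccGAACATTCTCGAAccttttta
HSP70 (chr3:3993854-3993866, minus strand): ttactcgtGAACGTTCTCGAAagctcttt
cpHSC70-2 (chr5:20303349-20303361, plus strand): caaccattTTCTAGAACCTTCcacttctt
The element begins 34, 21, and 16 bases into the transcript in HSC70-3, HSP70, and cpHSC70-2, counting its start as base 1. A 2-unit element (GAA and TTC in either order with 2 bases between, and so contained in the 3-unit one) was found in the same 3 members and in 5287 of the 27443 windows (19.3%). A match is a description of the sequence, and the other 6 members simply have no such letters in this window.

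HSC70-1, the main constitutive cytosolic HSP70, was the most abundant member by median, at 994 TPM over all 76 libraries (305–2063 TPM). By median over all libraries it was followed by HSC70-3 (213 TPM), cpHSC70-1 (201 TPM), cpHSC70-2 (189 TPM), mtHSC70-1 (65.2 TPM), mtHSC70-2 (37.2 TPM), HSP70 (34.1 TPM), HSC70-2 (8.48 TPM), and HSP70-5 (3.22 TPM). The ranges of neighbors in this order overlapped throughout, and the order was not fixed. HSP70, a strongly heat-inducible cytosolic member, spanned 0.994–3091 TPM, HSP70-5 spanned 1.52–1454 TPM, and HSC70-3 spanned 6.23–1779 TPM, while cpHSC70-1, a stromal chaperone, stayed within 84.0–315 TPM. The 5 cytosolic members made up 60.0%–90.1% (median 73.4%) of the summed TPM of the 9 genes.

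To ask which members follow the time of day, WT at 17°C was compared across the 8 times (2 libraries each). With edgeR's quasi-likelihood F test over time, with Benjamini-Hochberg (BH) adjustment over 20692 genes, 8 of the 9 members passed an adjusted p of 0.05, where 68.6% of all genes tested did. HSP70-5 did not pass (adjusted p = 0.09), and it lay between 1.65 and 3.61 TPM in the 16 libraries. The call of cpHSC70-1 was weak (adjusted p = 0.027). It was lost without replicate 2 of ZT2 (adjusted p = 0.052) or of ZT4 (adjusted p = 0.32), without the filter on low counts (adjusted p = 0.11), and with only the compared groups in the fit (adjusted p = 0.053), and its means spanned only 1.32-fold.

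The constitutive cytosolic HSC70-1 had 1246 and 1258 TPM at ZT0 and 1466 and 1403 TPM at ZT2, and its lowest pair was at ZT8, with 937 and 904 TPM. HSC70-3, a cytosolic member with both basal and induced expression, had 270.4 and 248 TPM at ZT1 and 483 and 522 TPM at ZT2, against 73.6 and 75.8 TPM at ZT0. All 8 light libraries of HSC70-3 (243–522 TPM) were above all 8 dark ones (73.6–91.3 TPM). HSP70 had 21.2 and 15.2 TPM at ZT1 and 39.2 and 63.2 TPM at ZT2, against 4.62 and 4.25 TPM at ZT0. Its libraries of ZT12 differed between replicates (2.36 and 9.31 TPM), so that its light range (8.95–63.2 TPM) and its dark range (2.36–9.31 TPM) overlapped. HSC70-2, a minor cytosolic member, had 17.5 and 21.2 TPM at ZT2, against 3.47 and 3.26 TPM at ZT0.

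The chloroplast members differed from each other in their course. cpHSC70-2 had 344 and 352 TPM at ZT2, against 181 and 173 TPM at ZT0, while cpHSC70-1 had 209 and 234 TPM at ZT2, against 217 and 199.8 TPM at ZT0. The ratio of cpHSC70-2 to cpHSC70-1 was 0.983–1.65 in the 8 light libraries and 0.836–1.19 in the 8 dark ones, where replicate 2 of ZT12 gave the 1.19. The mitochondrial matrix chaperone mtHSC70-2 had 62.3 and 64.1 TPM at ZT2, against 27.8 and 24.03 TPM at ZT0. mtHSC70-1 was highest later, with 120.1 and 128 TPM at ZT8, against 61.9 and 55.1 TPM at ZT0. The ratio of mtHSC70-2 to mtHSC70-1 was highest at ZT2 (0.741 and 0.768) and lay between 0.354 and 0.449 in the dark libraries.

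At 17°C, 4 of the 9 members were higher at ZT1 than at ZT0, where 7.74% of all genes were called higher and 15.8% in either direction. The log2 fold change was 2.04 (SE 0.36, adjusted p = 0.00015) for HSP70, 1.82 (SE 0.14, adjusted p = 3.4e-10) for HSC70-3, 1.11 (SE 0.21, adjusted p = 0.00034) for HSC70-2, and 0.71 (SE 0.12, adjusted p = 8.7e-05) for mtHSC70-2. At ZT2, 6 members were higher and 1 was lower than at ZT0, where 15.9% of all genes were called higher and 15.9% lower. HSP70 rose by 3.53 (SE 0.35, adjusted p = 1.7e-08) on the log2 scale, HSC70-3 by 2.75 (SE 0.14, adjusted p = 2.4e-13), and HSC70-2 by 2.56 (SE 0.19, adjusted p = 1.8e-10). mtHSC70-2 rose by 1.31 (SE 0.12, adjusted p = 4.8e-09), cpHSC70-2 by 1.01 (SE 0.14, adjusted p = 3.8e-06), and mtHSC70-1 by 0.56 (SE 0.11, adjusted p = 0.00027). The median over the 9 members was 0.30 at ZT1 and 1.01 at ZT2, beside 0.0044 and −0.00061 over all genes. The fall of HSP70-5 at ZT2, −0.74 (SE 0.24, adjusted p = 0.021), was lost in DESeq2 (adjusted p = 0.052) and without WT ZT0 replicate 1, WT ZT0 replicate 2, or WT ZT2 replicate 2 (−0.70, −0.78, and −0.52).

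**Figure D1:**
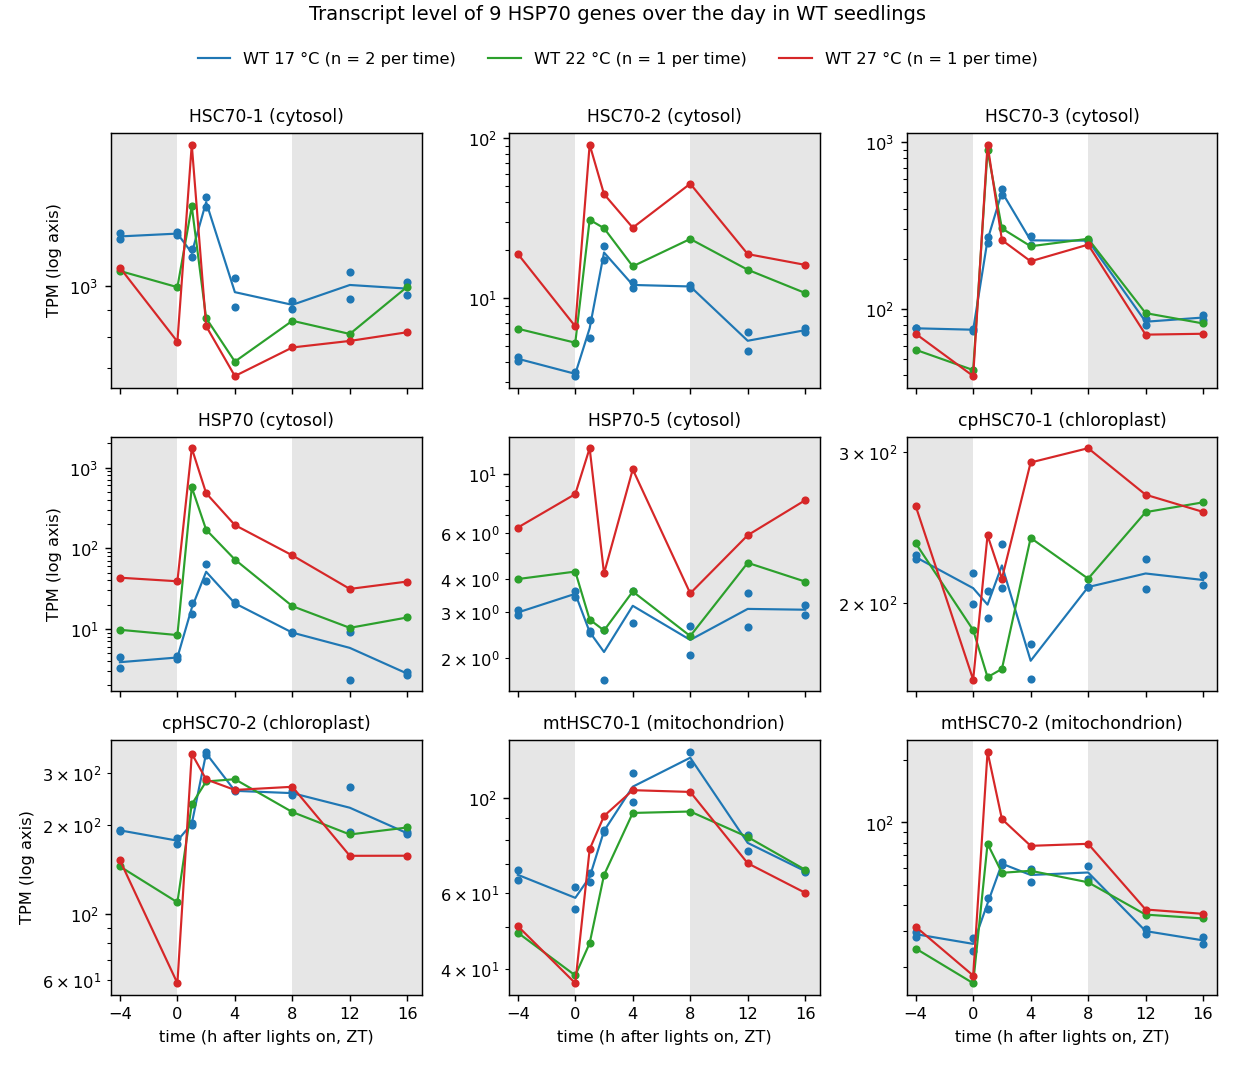
TPM of each member (log axis) against ZT in hours in WT at 17°C (2 points per time, line through their mean), 22°C, and 27°C (1 point per time), with the dark hours shaded. HSP70 and HSC70-3 were highest at ZT2 at 17°C and at ZT1 at 22°C and 27°C, while mtHSC70-1 was highest at ZT4 or ZT8.

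At 22°C and 27°C the highest value of 5 and 7 of the 9 members came at ZT1, 1 hour after lights on. With a single library at each point, single times were not tested, and values were set side by side as differences of log2(TPM + 1), on which scale changes of low genes are understated. In order of time, with ZT−4 first and ZT16 last, HSC70-3 had 56.6, 42.7, 894, 304, 237, 263, 93.98 and 81.5 TPM at 22°C and 70.6, 39.3, 969.6, 258, 193, 243, 69.8 and 70.6 TPM at 27°C. HSP70 had 9.77, 8.41, 569.8, 169.8, 72.5, 19.2, 10.3 and 13.9 TPM at 22°C and 43.2, 39.01, 1738, 481, 194, 81.6, 31.4 and 38.7 TPM at 27°C. Both genes had a sharp maximum at ZT1 and had lost most of it by ZT2. mtHSC70-2 had 24.6, 16.7, 78.9, 57.1, 58.4, 51.4, 35.9 and 34.4 TPM at 22°C and 31.4, 18.2, 219, 104, 77.1, 78.9, 37.98 and 36.2 TPM at 27°C. cpHSC70-2 had 145, 109.8, 234, 279.96, 285, 221, 186 and 196 TPM at 22°C and 152, 58.7, 347, 284, 262, 269, 157 and 158 TPM at 27°C. The lowest value of both organelle genes was at ZT0 at either temperature, and cpHSC70-2 held a level above 200 TPM through ZT8. HSC70-1 was also highest at ZT1, at 1408 TPM at 22°C and 1839 TPM at 27°C, and lowest at ZT4, at 720.3 TPM and 677 TPM.

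Between ZT1 and ZT0, 5 of the 9 members were at least 2 times as high at 22°C, where 8.80% of the 18155 genes with at least 5 TPM in any of the 16 libraries were, and 7 members were at 27°C, where 11.3% were. At 22°C the differences were 5.92 for HSP70, 4.36 for HSC70-3, 2.35 for HSC70-2, 2.17 for mtHSC70-2, and 1.09 for cpHSC70-2. At 27°C they were 5.44, 4.59, 3.59, 3.52, and 2.54 in the same order of genes, and HSC70-1 (1.23) and mtHSC70-1 (1.02) also passed. HSP70-5 and cpHSC70-1 did not pass at either temperature. The median over the members was 1.09 at 22°C and 2.54 at 27°C, beside −0.06 and −0.02 over all genes.

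Set against 22°C at the same time, HSP70 was the 1 member that was at least 2 times as high at 27°C at all 8 times, with differences of log2(TPM + 1) from 1.41 to 2.09. At ZT1 4 members reached this size, where 2.16% of genes did: HSP70 (1.61), HSP70-5 (1.84), HSC70-2 (1.53), and mtHSC70-2 (1.46). HSP70-5, a cytosolic member known for induction by heat, had 12.6 TPM at 27°C and 2.80 TPM at 22°C at ZT1, and at 27°C it lay between 3.53 and 12.6 TPM over the day. HSC70-2 reached this size at ZT−4, ZT1, and ZT8, and HSP70-5 at ZT1 and ZT4. At ZT−4, ZT0, ZT2, ZT4, ZT8, ZT12, and ZT16, 2, 1, 1, 2, 2, 1, and 1 members did, beside 0.958%, 2.13%, 1.97%, 0.887%, 1.66%, 0.826%, and 1.12% of genes, and no member reached this size in the opposite direction at any time. HSC70-3, by contrast, had 969.6 TPM at 27°C and 894 TPM at 22°C at ZT1, a difference of 0.12. With 1 library each, none of these differences at a single time can be set against a spread between replicates.

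Over the whole day, 27°C was set against 22°C with the time as a block (limma on log2(TPM + 1), 8 libraries per temperature), in a test added after seeing the data. 4 members were higher at 27°C and 0 lower, where 21.4% of all genes were called higher and 30.4% in either direction. The difference was 1.70 (SE 0.09, adjusted p = 1.8e-06) for HSP70, 0.83 (SE 0.14, adjusted p = 0.0017) for HSC70-2, 0.83 (SE 0.16, adjusted p = 0.0032) for HSP70-5, and 0.49 (SE 0.14, adjusted p = 0.021) for mtHSC70-2, and each was higher at 27°C at 8 of 8 times. The other members did not pass, at −0.07 for HSC70-1, −0.12 for HSC70-3, 0.21 for cpHSC70-1, −0.08 for cpHSC70-2, and 0.14 for mtHSC70-1, with SE from 0.07 to 0.13. The median over the members was 0.21, beside 0.07 over all genes. cpHSC70-1 was called without ZT0 (0.27, adjusted p = 0.028), and the times of a course are not replicates of a temperature.

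The organelle pairs changed in balance over the day. At 22°C the ratio of cpHSC70-2 to cpHSC70-1 was 1.03–1.67 in the 4 light libraries and 0.590–0.748 in the 4 dark ones. At 27°C it was 0.887–1.45 in the light and 0.360–0.617 in the dark. Light and dark libraries did not overlap at either temperature, and cpHSC70-2 was the more abundant of the pair in all but the ZT4 and ZT8 libraries of 27°C among those of the light. The ratio of mtHSC70-2 to mtHSC70-1 was 0.553–1.72 in the light and 0.434–0.507 in the dark at 22°C, and 0.739–2.89 in the light and 0.492–0.624 in the dark at 27°C. Its maximum was at ZT1 at both temperatures. These ratios describe libraries that differ in time as well as in light, and the 2 cannot be told apart.

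**Figure D2:**
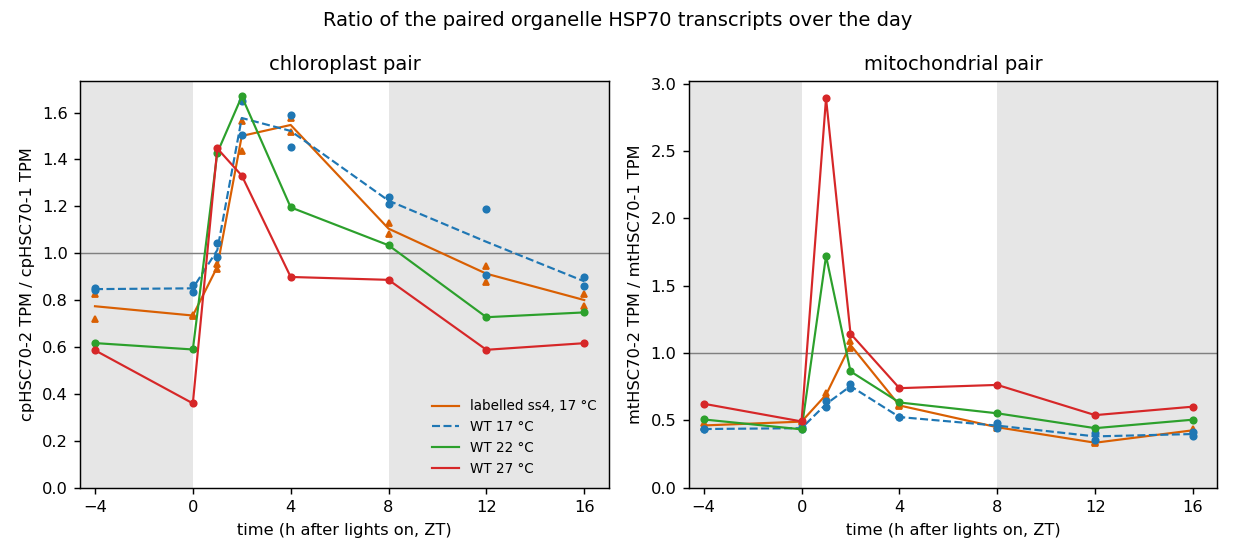
Ratio of TPM within the chloroplast pair (left) and the mitochondrial pair (right) against ZT in hours, in libraries labelled ss4 (triangles) and WT (circles) at 17°C, and in WT at 22°C and 27°C. Points are libraries, lines join means, the dark hours are shaded, and the mitochondrial ratio reached 2.89 at ZT1 at 27°C.

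In the libraries labelled *ss4*, 2 cytosolic members stood above WT in the morning at 17°C and no organelle member passed edgeR's test at any time. At ZT2, HSP70 had 311 and 313 TPM in the libraries labelled *ss4*, against 39.2 and 63.2 TPM in WT. HSP70-5 had 11.9 and 14.04 TPM, against 2.56 and 1.65 TPM in WT. For both genes the groups were far apart and the replicates did not overlap. These were the 2 members called of 9, both higher, where 0.532% of all genes were called and 0.449% higher (edgeR quasi-likelihood test, BH). The log2 fold change was 2.63 (SE 0.29, adjusted p = 2.1e-06) for HSP70 and 2.75 (SE 0.22, adjusted p = 7.6e-09) for HSP70-5. HSC70-3 had 723 and 692 TPM in the libraries labelled *ss4*, against 483 and 522 TPM in WT. Its difference of 0.51 (SE 0.13, adjusted p = 0.093) did not pass, although it passed in DESeq2 (adjusted p = 0.015), without the filter on low counts (adjusted p = 0.014), and with only the compared groups in the fit (adjusted p = 0.023). The median over the members was 0.15, beside 0.0052 over all genes.

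At ZT4 HSP70 was the 1 member called by edgeR, with 78.5 and 47.9 TPM in the libraries labelled *ss4*, against 21.4 and 20.2 TPM in WT, and a log2 fold change of 1.78 (SE 0.30, adjusted p = 0.0021), where 5.42% of all genes were called and 2.88% higher. DESeq2 also called cpHSC70-1 higher (0.29, adjusted p = 0.039). The replicates labelled *ss4* differed from each other by more than those of WT, and the groups did not overlap. HSP70-5 was back near its low level, with 1.52 and 1.99 TPM in the libraries labelled *ss4* and 2.73 and 3.596 TPM in WT. At ZT4, scaling by library size alone, in place of TMM, put 18.0% of the calls among all genes on the higher side, against 53.2% with TMM. Root markers moved at this time, with sums of 41.6 and 42.2 TPM in the libraries labelled *ss4*, against 84.0 and 90.4 TPM in WT, and their part in the result was not tested.

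At ZT−4, ZT0, ZT1, ZT8, ZT12, and ZT16 the edgeR test called 0 members, with 6, 4, 2, 1, 1, and 4 members at an unadjusted p under 0.05, and DESeq2 also called 0 at each. Of all genes 0.0483%, 0.0290%, 0.0532%, 0.00967%, 2.99%, and 0.0193% were called at these times. At ZT1 HSP70 had 39.1 and 39.4 TPM in the libraries labelled *ss4*, against 21.2 and 15.2 TPM in WT, a difference of 1.15 (SE 0.30, adjusted p = 0.4) with replicates that did not overlap, which passed without the filter on low counts (adjusted p = 7.5e-13) and with only the compared groups in the fit (adjusted p = 4.6e-06). In the dark before lights on, most members lay lower in the libraries labelled *ss4* without passing the test. At ZT0 mtHSC70-1 had 42.2 and 40.5 TPM, against 61.9 and 55.1 TPM in WT (−0.42, SE 0.11, adjusted p = 0.32), and cpHSC70-2 had 122 and 122 TPM, against 181 and 173 TPM in WT (−0.42, SE 0.14, adjusted p = 0.52). Both passed with only the compared groups in the fit (adjusted p = 0.03 and 0.024). At ZT16 HSC70-3 was called lower without the filter on low counts (−0.48, adjusted p = 0.034) and with only the compared groups (−0.47, adjusted p = 0.04), and mtHSC70-1 with only the compared groups (−0.41, adjusted p = 0.031). At ZT12 the WT replicates disagreed. Without WT replicate 1, HSP70 (−0.95) and cpHSC70-2 (−0.62) were called lower, and without WT replicate 2 the difference of HSP70 was 1.15, in the opposite direction.

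The change of the difference between ZT2 and ZT0 was tested itself. It was 2.96 (SE 0.32, adjusted p = 1.6e-05) for HSP70-5 and 2.54 (SE 0.49, adjusted p = 0.028) for HSP70, 2 members called where 0.121% of all genes were. HSP70-5 passed in each of the 8 runs that left out 1 of these libraries, and HSP70 passed only without replicate 2 of WT at ZT2 (2.93). For HSP70 it was 2.50 and 2.56 without replicates 1 and 2 of WT at ZT0, 2.24 without replicate 1 of WT at ZT2, 2.35 and 2.84 without replicates 1 and 2 labelled *ss4* at ZT0, and 2.53 and 2.55 without replicates 1 and 2 labelled *ss4* at ZT2, with adjusted p between 0.07 and 0.26 in these 7 runs. HSC70-3 (0.76) passed in DESeq2 (adjusted p = 0.026), and also without the filter on low counts (0.75, adjusted p = 0.015) and with only the compared groups (0.75, adjusted p = 0.009).

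**Figure D3:**
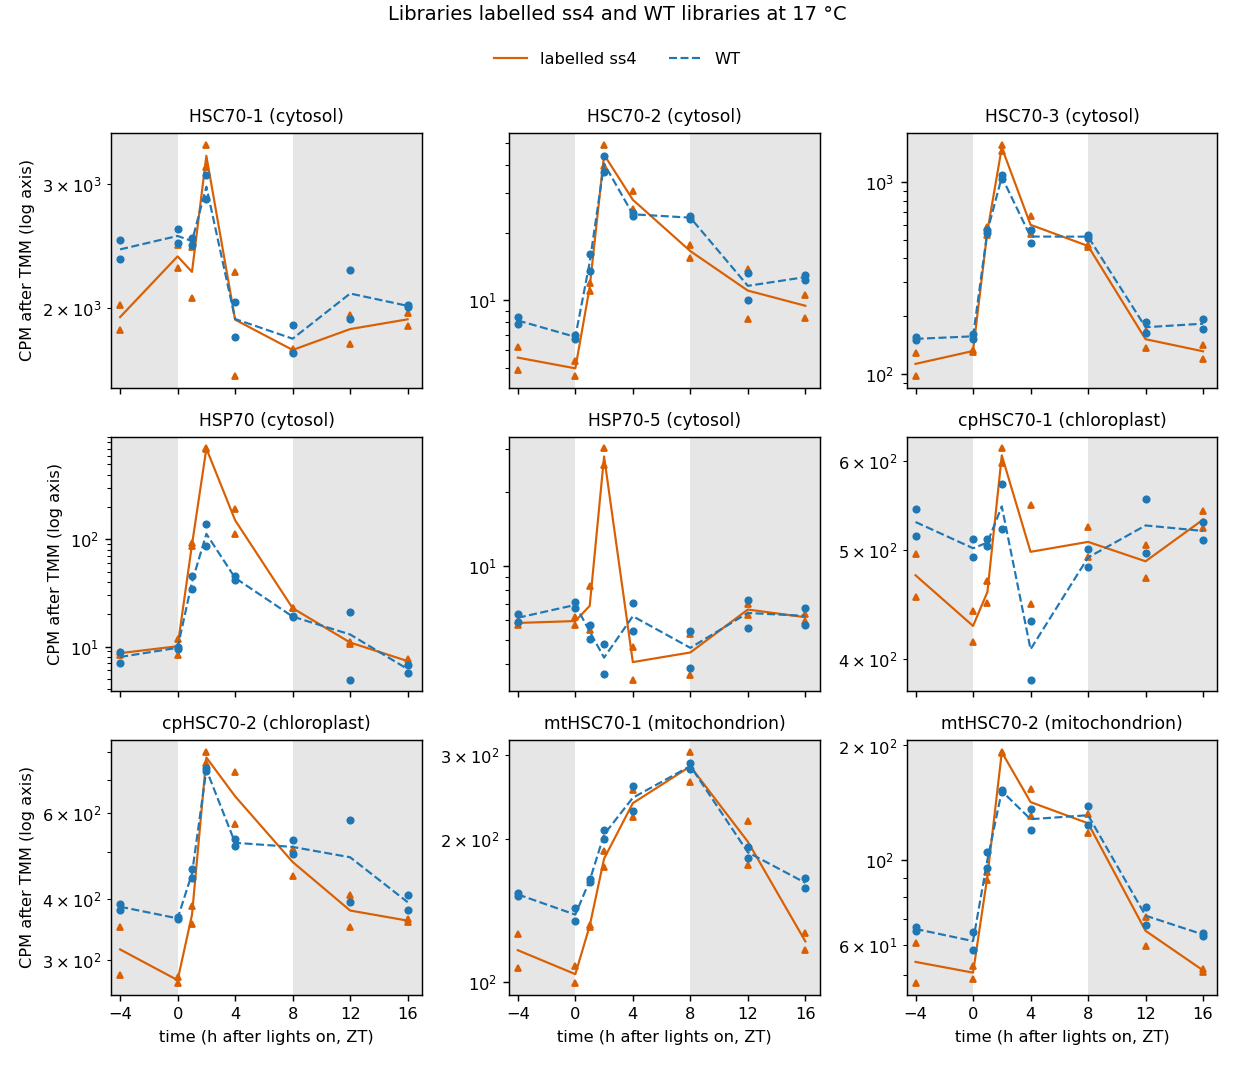
CPM (counts scaled to an equal library total after TMM, log axis) of each member against ZT in hours, in libraries labelled ss4 (triangles, solid line through the mean) and WT libraries (circles, dashed line) at 17°C, with the dark hours shaded. HSP70 and HSP70-5 part from WT at ZT2, while mtHSC70-1 has a maximum at ZT8 in both genotypes.

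The starch mutants were set against WT at the end of the night (ZT0) and 2 hours into the light (ZT2), to compare mutants that differ in where the pathway is blocked. At ZT0 nearly all members were lower in the mutants. HSC70-3 had 9.11 and 6.23 TPM in *pgm*, 12.8 and 14.2 TPM in *ss3/4*, and 8.61 and 10.1 TPM in *ss3/4/pgm*, against 73.6 and 75.8 TPM in WT. HSC70-1 had 379 and 305 TPM, 574 and 578 TPM, and 368 and 377 TPM in the same order of mutants, against 1246 and 1258 TPM in WT. In neither gene did any mutant library reach the WT range. The organelle members followed, and mtHSC70-1 had 10.5 and 9.39 TPM in *pgm*, 17.8 and 17.4 TPM in *ss3/4*, and 11.8 and 11.6 TPM in *ss3/4/pgm*, against 61.9 and 55.1 TPM in WT. cpHSC70-2 had 38.9 and 29.4 TPM, 54.9 and 51.7 TPM, and 38.4 and 35.9 TPM, against 181 and 173 TPM in WT. Its partner cpHSC70-1, called lower as well, had 113 and 83.997 TPM, 133 and 138 TPM, and 101 and 100.1 TPM, against 217 and 199.8 TPM in WT. The ratio of cpHSC70-2 to cpHSC70-1 was 0.345–0.413 in the 6 mutant libraries of ZT0, against 0.836 and 0.864 in WT.

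By edgeR's test over 20130 genes, 8 members were lower in each of the 3 mutants at ZT0, all but HSP70-5. Of all genes, 28.9% were called lower in *pgm*, 28.1% in *ss3/4*, and 30.7% in *ss3/4/pgm*, and 57.0%, 58.5%, and 61.3% were called in either direction. The median log2 fold change over the 9 members was −1.84 in *pgm*, −1.37 in *ss3/4*, and −1.86 in *ss3/4/pgm*, beside −0.07, 0.01, and −0.04 over all genes. HSC70-3 had a log2 fold change of −2.82 (SE 0.14, adjusted p = 1.3e-11) in *pgm*, −2.24 (SE 0.13, adjusted p = 5.9e-11) in *ss3/4*, and −2.65 (SE 0.13, adjusted p = 6.5e-12) in *ss3/4/pgm*. HSC70-2 was the lowest in count, with 5 reads in both *pgm* libraries against 125 in WT, a ratio of 0.0993 per read sequenced (exact 95% interval 0.0317–0.238, counting error only), which is 10.1-fold lower (4.204 to 31.6). Scaling by library size alone, in place of TMM, moved the median of all genes at ZT0 to −0.51 in *pgm*, −0.26 in *ss3/4*, and −0.38 in *ss3/4/pgm*, and turned no member's direction. It put 23.1%, 32.8%, and 28.5% of the calls among all genes on the higher side, against 49.3%, 52.0%, and 49.9% with TMM.

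HSP70 at ZT0 was low in all libraries, with 0.994 and 1.21 TPM in *pgm*, 2.29 and 2.24 TPM in *ss3/4*, and 1.59 and 1.27 TPM in *ss3/4/pgm*, against 4.62 and 4.25 TPM in WT. Its call was lost in *pgm* without *pgm* replicate 1 (−1.26, in place of −1.56). In *ss3/4* (−0.72) it was lost without any of the 4 libraries, WT replicates 1 and 2 (−0.70 and −0.74) and *ss3/4* replicates 1 and 2 (−0.72 and −0.72). The fall of cpHSC70-1 in *ss3/4* (−0.31) was lost without WT replicate 1 or 2 (−0.28 and −0.33) and without *ss3/4* replicate 1 (−0.22). HSP70-5 was called higher in *pgm* (0.64, SE 0.22, adjusted p = 0.018) and in *ss3/4* (0.54, SE 0.19, adjusted p = 0.02), where 28.1% and 30.4% of all genes were called higher, at 4.07 and 2.996 TPM in *pgm* and 3.84 and 4.05 TPM in *ss3/4*, against 3.61 and 3.41 TPM in WT. The *pgm* and WT values overlapped. In *ss3/4/pgm* HSP70-5 did not pass (0.43, SE 0.19, adjusted p = 0.059). The call in *pgm* was lost without WT replicate 2 (0.60), without *pgm* replicate 1 (0.38), in DESeq2 (0.65), and with scaling by library size alone (0.20). That in *ss3/4* was lost without WT replicate 2 (0.50), without *ss3/4* replicate 2 (0.44), in DESeq2 (0.52), with scaling by library size alone (0.27), and with at least 10 counts required in every library (0.43).

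At ZT2 HSP70 and HSP70-5 parted *ss3/4* from the other mutants, while the other cytosolic members did not rise above WT in it. HSP70 had 36.8 and 42.4 TPM in *pgm*, 302 and 295 TPM in *ss3/4*, and 36.9 and 41.2 TPM in *ss3/4/pgm*, against 39.2 and 63.2 TPM in WT. HSP70-5 had 2.13 and 2.63 TPM, 45.6 and 33.5 TPM, and 2.06 and 2.25 TPM, against 2.56 and 1.65 TPM in WT. The *ss3/4* libraries were above all others for both genes, and *pgm* and *ss3/4/pgm* overlapped with or lay close to WT. In *ss3/4* the log2 fold change was 2.59 (SE 0.14, adjusted p = 1.2e-10) for HSP70 and 4.40 (SE 0.17, adjusted p = 1.6e-12) for HSP70-5, the 2 members called higher, where 26.6% of all genes were. HSP70 was at −0.19 (SE 0.14, adjusted p = 0.32) in *pgm* and −0.11 (SE 0.14, adjusted p = 0.59) in *ss3/4/pgm*, and without WT ZT2 replicate 2 these were 0.20 and 0.29, in the opposite direction and not called. Without WT ZT2 replicate 1 they were −0.48 and −0.40 and were called.

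The other members were mostly lower than WT at ZT2 too. 7 members were called lower in *pgm* and 7 in *ss3/4/pgm*, where 21.0% and 21.7% of all genes were, and 5 in *ss3/4*, where 27.4% were. Of all genes, 40.4%, 54.0%, and 41.3% were called in either direction in *pgm*, *ss3/4*, and *ss3/4/pgm*. HSC70-3 had 238 and 279 TPM in *pgm*, 259 and 205 TPM in *ss3/4*, and 211 and 228 TPM in *ss3/4/pgm*, against 483 and 522 TPM in WT, and was called lower in each (−0.76, −1.07, and −0.89 on the log2 scale). HSC70-2, which also rose from ZT0 to ZT2 in WT, was called lower in each too (−1.49, −1.24, and −1.40). mtHSC70-1 was lower by a similar amount in all 3 (−1.21, −1.20, and −1.15). mtHSC70-2 was not, with 23.4 and 31.3 TPM in *pgm*, 67.1 and 60.03 TPM in *ss3/4*, and 25.6 and 23.2 TPM in *ss3/4/pgm*, against 62.3 and 64.1 TPM in WT. In *ss3/4* its difference of 0.08 (SE 0.10, adjusted p = 0.54) did not pass, and the ratio of mtHSC70-2 to mtHSC70-1 was 1.70 and 1.86, against 0.741 and 0.768 in WT. cpHSC70-1 in *ss3/4* did not pass either (−0.24, SE 0.11, adjusted p = 0.063). The median over the members was −0.83 in *pgm*, −0.66 in *ss3/4*, and −0.89 in *ss3/4/pgm*, beside −0.0012, −0.0037, and −0.0083 over all genes. Root markers summed to 34.0–49.1 TPM in the 6 mutant libraries of ZT0, against 62.1 and 63.9 TPM in WT, and to 29.1–43.3 TPM in those of ZT2, against 40.3 and 48.3 TPM in WT, and their part in these results was not tested. Green shoot markers summed to 23411 and 35149 TPM in *pgm*, 16345 and 21370 TPM in *ss3/4*, and 21849 and 23146 TPM in *ss3/4/pgm*, against 21706 and 22086 TPM in WT at ZT0, and their part was not tested either. All comparisons of a time share their 2 WT libraries. In a test added after seeing the data, the difference from WT changed upward between ZT0 and ZT2 for 7 members in *pgm*, 5 in *ss3/4*, and 6 in *ss3/4/pgm*, where 31.2%, 22.2%, and 33.5% of all genes were called in either direction.

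The double mutant was then set against the triple mutant, which differs from it by *pgm*. At ZT2, 5 members were higher in *ss3/4* than in *ss3/4/pgm*, where 13.6% of all genes were called higher and 25.9% in either direction. The log2 fold change was 2.69 (SE 0.15, adjusted p = 1.8e-10) for HSP70, 3.89 (SE 0.17, adjusted p = 1e-11) for HSP70-5, 1.13 (SE 0.11, adjusted p = 3.2e-07) for mtHSC70-2, and 0.64 (SE 0.11, adjusted p = 0.00026) for cpHSC70-1. cpHSC70-2 (0.29, SE 0.10, adjusted p = 0.042) was lost without *ss3/4* replicate 1 (0.21), without *ss3/4/pgm* replicate 1 or 2 (0.28 and 0.29), without the filter on low counts (0.29), and with only the compared groups in the fit (0.28). HSC70-1, HSC70-2, HSC70-3, and mtHSC70-1 did not pass, at 0.03, 0.16, −0.18, and −0.05 with SE of 0.12, 0.19, 0.11, and 0.09. Scaling by library size alone moved the median of all genes to 0.18 from 0.01 in this comparison and put 78.3% of the calls on the higher side, against 52.3% with TMM (67.0% against 52.8% at ZT0).

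At ZT0, 6 members were higher in *ss3/4* than in *ss3/4/pgm*, where 9.72% of all genes were called higher and 18.4% in either direction. The differences were 0.62 (SE 0.14, adjusted p = 0.0042) for mtHSC70-2, 0.54 (SE 0.12, adjusted p = 0.0043) for HSC70-1, 0.50 (SE 0.10, adjusted p = 0.0014) for mtHSC70-1, and 0.44 (SE 0.10, adjusted p = 0.0063) for cpHSC70-2. mtHSC70-2 was lost without *ss3/4/pgm* replicate 1 (0.52), and cpHSC70-2 without *ss3/4/pgm* replicate 2 (0.37). HSC70-3 (0.41, SE 0.14, adjusted p = 0.04) was lost without each of the 4 libraries, *ss3/4* replicates 1 and 2 (0.49 and 0.34) and *ss3/4/pgm* replicates 1 and 2 (0.35 and 0.49). cpHSC70-1 (0.35, SE 0.11, adjusted p = 0.03) was lost without *ss3/4* replicate 2 (0.27) and without *ss3/4/pgm* replicate 1 or 2 (0.40 and 0.31). HSC70-3 and cpHSC70-1 also did not pass with only the compared groups in the fit. The median over the members was 0.44 at ZT0 and 0.29 at ZT2, beside 0.02 and 0.01 over all genes.

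**Figure D4:**
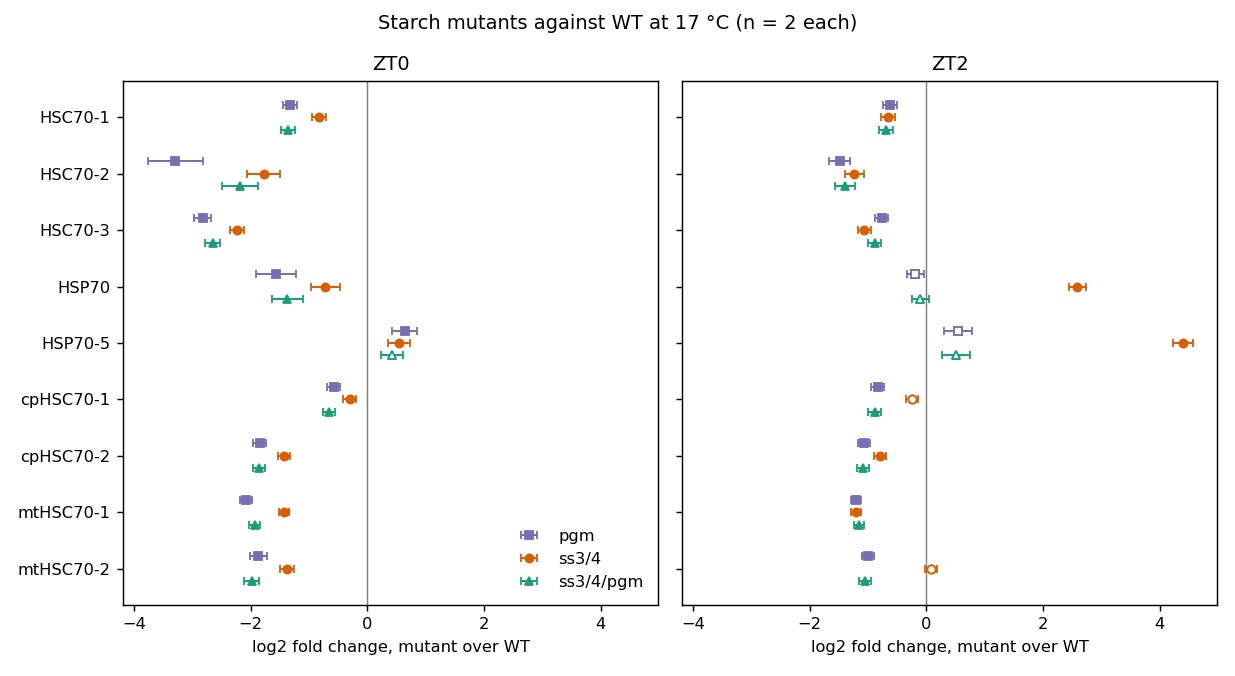
Log2 fold change against WT of each member in pgm (squares), ss3/4 (circles), and ss3/4/pgm (triangles) at ZT0 (left) and ZT2 (right), with bars of ±1 SE and filled symbols where the adjusted p was under 0.05 (edgeR, 2 libraries per group). At ZT0 nearly all symbols lie below 0, and at ZT2 HSP70 and HSP70-5 of ss3/4 stand at 2.59 and 4.40.

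In liquid culture the inhibitors were to be compared with the mock treatment, but the 2 libraries of each inhibitor label did not resemble each other. HSP70 had 1045 and 17.8 TPM in replicates 1 and 2 labelled DBMIB and 15.6 and 945 TPM in those labelled DCMU, against 204 and 245 TPM in mock and 189 and 254 TPM in untreated seedlings at 22°C. At 27°C it had 3091 and 259.6 TPM labelled DBMIB and 158 and 2686 TPM labelled DCMU, against 1664 and 1354 TPM in mock and 1349.9 and 1455 TPM in untreated seedlings. Replicate 1 labelled DBMIB and replicate 2 labelled DCMU were above mock at both temperatures, and replicate 2 labelled DBMIB and replicate 1 labelled DCMU were below it. Across the 20282 other genes, differences from mock were correlated at 0.920 (22°C) and 0.944 (27°C) between replicate 1 labelled DBMIB and replicate 2 labelled DCMU and at 0.829 and 0.788 between replicate 2 labelled DBMIB and replicate 1 labelled DCMU, while pairs with the same label gave 0.173–0.288. These values are across genes of libraries that share the mock mean, and genes are not independent replicates. The labels were kept as given, each value is that of the library labelled so, and no direction is drawn for an inhibitor. Whether 2 libraries of each temperature carry each other's label cannot be told from these files.

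HSP70-5 showed the widest span, with 1454 and 3.796 TPM in replicates 1 and 2 labelled DBMIB and 1.89 and 1199 TPM in those labelled DCMU, against 49.8 and 50.1 TPM in mock at 27°C. At 22°C it had 245 and 2.39 TPM and 3.42 and 275 TPM, against 2.07 and 2.61 TPM in mock. The same libraries were high as for HSP70, and at 22°C the low ones were at or near the mock level. HSC70-3 at 22°C had 959 and 49.4 TPM labelled DBMIB and 43.6 and 814 TPM labelled DCMU, against 465 and 500.1 TPM in mock, and mtHSC70-2 had 101 and 18.4 TPM and 19.4 and 101 TPM, against 69.98 and 72.9 TPM in mock. HSC70-2 split in the same way, with 98.5 and 2.902 TPM labelled DBMIB and 1.95 and 90.5 TPM labelled DCMU, against 9.52 and 15.6 TPM in mock at 22°C. HSC70-1 varied little, between 1289 and 1636 TPM in the 4 inhibitor libraries of 22°C, against 1521 and 1525 TPM in mock.

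In TPM, the other 3 members, cpHSC70-1, cpHSC70-2, and mtHSC70-1, lay below mock in all 8 libraries that carry an inhibitor label. cpHSC70-2 had 119 and 73.9 TPM labelled DBMIB and 76.3 and 123 TPM labelled DCMU, against 197 and 199.9 TPM in mock at 22°C, and 250.03 and 119.9 TPM and 86.6 and 232 TPM, against 348 and 336 TPM in mock at 27°C. mtHSC70-1 had 54.7 and 40.7 TPM and 42.8 and 56.7 TPM, against 71.7 and 66.6 TPM at 22°C, and 66.5 and 38.2 TPM and 42.1 and 62.3 TPM, against 105 and 99.3 TPM at 27°C. cpHSC70-1 had 162 and 143 TPM and 165 and 148 TPM, against 190.3 and 180.1 TPM at 22°C, and 276 and 181 TPM and 181 and 247 TPM, against 315 and 299 TPM at 27°C. Each of these TPM values was lower than in both mock libraries of its temperature, with no overlap. For cpHSC70-1 this depended on the scaling. After TMM scaling, it lay above the mock library of the same number in replicate 1 labelled DBMIB. The log2 CPM difference was 0.03 at 22°C and 0.12 at 27°C. It was 0.06 in replicate 2 labelled DCMU at 27°C, and negative in the other libraries. cpHSC70-2 and mtHSC70-1 lay below in all 8, at only −0.02 for mtHSC70-1 in replicate 2 labelled DCMU at 22°C. In the edgeR fit of all 16 liquid culture libraries, 0 members were called in DBMIB or DCMU against mock at either temperature, 0 had an unadjusted p under 0.05, and DESeq2 called 0. Of all genes 1.66% (DBMIB, 22°C), 6.57% (DBMIB, 27°C), 3.49% (DCMU, 22°C), and 6.48% (DCMU, 27°C) were called. Since the 2 libraries of a label stand apart, the common dispersion of this fit was 0.142, against 0.0108 in the fit of the libraries labelled *ss4* and WT.

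**Figure D5:**
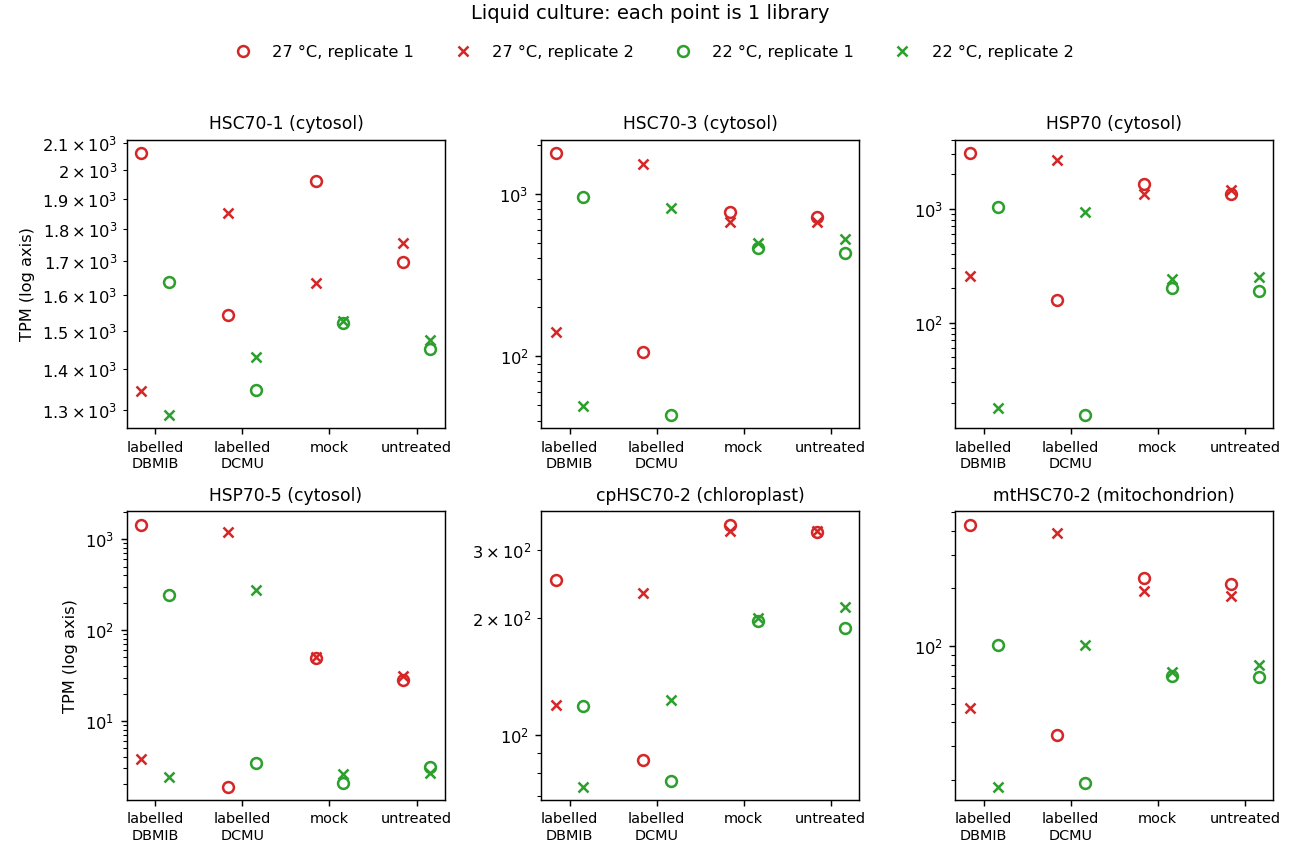
TPM (log axis) of 6 members in the liquid culture libraries labelled DBMIB and DCMU and in mock and untreated libraries, sampled at ZT1, with 1 symbol per library (circles replicate 1, crosses replicate 2) at 27°C and 22°C. For HSC70-3, HSP70, HSP70-5, and mtHSC70-2 the circle and the cross of an inhibitor label lie on opposite sides of mock at 27°C, while for cpHSC70-2 both lie below it.

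The untreated and mock libraries gave a replicated view of growth temperature at ZT1. HSC70-2 had 91.9 and 93.1 TPM in untreated seedlings at 27°C, against 11.5 and 16.6 TPM at 22°C, and 101 and 95.01 TPM in mock seedlings at 27°C, against 9.52 and 15.6 TPM at 22°C. The values of HSP70 and HSP70-5 given above showed the same separation, without overlap between temperatures. In the fit of all 16 libraries 0 members were called in untreated or mock seedlings (0 and 1 at an unadjusted p under 0.05, and 0 in DESeq2), where 0.0197% and 0.0296% of all genes were. The 8 untreated and mock libraries were therefore also fitted alone, a choice made after seeing the data. In that fit 8 members, all but HSC70-1, were higher at 27°C in untreated and again in mock seedlings, where 22.8% and 27.1% of all genes were called in either direction, and 2378 and 2775 of 19838 genes were called higher. In untreated seedlings the log2 fold change was 3.30 (SE 0.14, adjusted p = 1.3e-08) for HSP70-5, 2.62 (SE 0.19, adjusted p = 9.5e-07) for HSC70-2, 2.57 (SE 0.17, adjusted p = 4.4e-07) for HSP70, and 1.32 (SE 0.11, adjusted p = 5.8e-06) for mtHSC70-2. It was 0.64 for cpHSC70-2, 0.52 for cpHSC70-1, 0.49 for mtHSC70-1, and 0.45 for HSC70-3, with adjusted p from 0.0008 to 0.021. In mock seedlings the 8 values ran from 0.45 for mtHSC70-1 to 4.22 for HSP70-5. HSC70-1 was at 0.14 (SE 0.14, adjusted p = 0.5) in untreated and 0.13 (SE 0.14, adjusted p = 0.53) in mock seedlings. Green shoot markers summed to 12364–14586 TPM in the 4 libraries at 27°C, against 16659–22116 TPM in the 4 at 22°C, and their part in the result was not tested.

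The mock treatment itself was also set against no treatment. With all 16 libraries 0 members were called at 22°C and 0 at 27°C (0 at an unadjusted p under 0.05, and 0 in DESeq2), where 0.00% of all genes were. The same fit called 0 members between 27°C and 22°C, so its 0 calls cannot show that mock and untreated seedlings were alike. With the 8 untreated and mock libraries alone, HSP70-5 at 27°C was called higher in mock seedlings, 0.79 (SE 0.10, adjusted p = 0.017), where 0.0958% of all genes were called, against 0 members at 22°C, where 0.131% were. It had 49.8 and 50.1 TPM in mock and 28.01 and 31.5 TPM in untreated seedlings, without overlap. The ratio of mtHSC70-2 to mtHSC70-1 was 0.976–2.15 in these 8 libraries, and that of cpHSC70-2 to cpHSC70-1 was 0.982–1.16.

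HSP70s work with partners, of which 39 were listed and 38 passed the filter on low counts. They were J-domain proteins, exchange factors, and adaptors of the 3 compartments, and other members of the HSP70 superfamily. The last group includes HSP70s of the endoplasmic reticulum, so the counts below are not confined to the 3 compartments. In WT at 17°C, 9 partners were higher and 4 lower at ZT1 than at ZT0, where 7.74% and 8.04% of all genes were, and 17 were higher and 6 lower at ZT2, where 15.9% and 15.9% were, with a median of 0.41 at ZT2 beside −0.00061 over all genes. Fes1A, a cytosolic exchange factor, had the largest rise at ZT2, with 45.3 and 88.6 CPM at ZT2, against 16.3 and 13.2 CPM at ZT0, a log2 fold change of 2.20 (SE 0.20, adjusted p = 4.5e-09). J8, a chloroplast J-domain protein, had the largest fall, with 17.5 and 24.9 CPM at ZT2, against 129.8 and 131 CPM at ZT0, −2.60 (SE 0.22, adjusted p = 9.9e-10). All 4 mitochondrial partners were higher at ZT2. In the libraries labelled *ss4*, 4 partners were higher and 0 lower than WT at ZT2, where 0.449% of all genes were called higher, led by HSP70T-2, a truncated HSP70, with 25.9 and 31.8 CPM in the libraries labelled *ss4*, against 4.97 and 4.96 CPM in WT (2.54, SE 0.24, adjusted p = 1.1e-07). At ZT4 4 were higher and 0 lower, where 2.88% of all genes were called higher, led by Hop3, an adaptor between HSP70 and HSP90 (1.02, SE 0.19, adjusted p = 0.0051).

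In the starch mutants at ZT0, 10 of the 38 partners were higher and 13 lower in *pgm*, 9 and 13 in *ss3/4*, and 11 and 15 in *ss3/4/pgm*, where 28.1% and 28.9%, 30.4% and 28.1%, and 30.6% and 30.7% of all genes were, shares near those of the partners. The partners had median log2 fold changes of −0.22, −0.22, and −0.24. J11, a chloroplast J-domain protein, had the largest rise in each, with 479.98 and 532 CPM in *pgm*, against 83.5 and 76.7 CPM in WT (2.66, SE 0.19, adjusted p = 9.5e-10). AR192, a mitochondrial exchange factor of the GrpE type, had the largest fall in *pgm*, with 1.002 and 1.54 CPM in *pgm*, against 14.3 and 14.9 CPM in WT (−3.63, SE 0.38, adjusted p = 1.7e-07). At ZT2, 3 were higher and 16 lower in *pgm*, 10 and 18 in *ss3/4*, and 2 and 17 in *ss3/4/pgm*, where 19.4% and 21.0%, 26.6% and 27.4%, and 19.7% and 21.7% of all genes were. HSP70T-2 had the largest rise in *ss3/4*, with 49.3 and 53.96 CPM in *ss3/4*, against 4.35 and 4.33 CPM in WT (3.57, SE 0.20, adjusted p = 9.7e-11). Against *ss3/4/pgm* at ZT2, 12 partners were higher and 1 lower in *ss3/4*, where 13.6% and 12.4% of all genes were, again led by HSP70T-2 (3.92, SE 0.22, adjusted p = 2e-10), and the fall was that of BIP2, an HSP70 of the endoplasmic reticulum (−0.74, SE 0.19, adjusted p = 0.0067). In liquid culture at 27°C, 1 partner was called higher (J8) and 3 lower in each inhibitor label against mock, and at 22°C 0 higher and 1 lower (BAG1), and the same limits hold for these labels.

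The genes most like 4 of the members over the 44 count libraries at 17°C were found by Pearson correlation of log2(CPM + 1) among 20847 genes, as a description over libraries that share times and genotypes. HSP70 was most like HSP90.1 (0.963), AT2G20560 (0.9599), and AT5G12110 (0.959), of which HSP90.1 encodes a heat-inducible cytosolic HSP90 and AT2G20560 is in the list of J-domain partners. HSC70-1 was most like MMT (0.899), AT1G18090 (0.894), and AT4G37100 (0.874). cpHSC70-1 was most like EMB2369 (0.910), CR88 (0.905), the chloroplast HSP90, and EMB1030 (0.881). mtHSC70-1 was most like AT3G57940 (0.988), NOP56 (0.985), a nucleolar protein, and PUR5 (0.984). Among the members themselves, HSC70-2, HSC70-3, cpHSC70-2, and mtHSC70-2, from 3 compartments, had pairwise correlations of 0.898–0.951. The pairs within an organelle were lower, at 0.675 for the chloroplast and 0.820 for the mitochondrion, and HSP70-5 did not exceed 0.460 with any other member. By Spearman correlation, those from 3 compartments had 0.751–0.934, the chloroplast pair 0.649, and the mitochondrial pair 0.632. HSP70-5 with HSP70, its highest by Pearson correlation, was at −0.21 by Spearman correlation, and HSP70-5 was negative with every other member.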

How the data were processed

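RNA was sequenced from pools of 25 seedlings. The authors deposited raw counts of reads per gene for 60 libraries and TPM for all 76, from a pipeline of their own. FPKM values stood beside the counts and were not used. The submitters' notes name FastQC, Trimmomatic, TopHat, Picard, and the build TAIR10, with no versions or roles. The labels name a stranded and another TruSeq kit and more than 1 sequencing center without tying them to libraries, the counting rules and the use of strand in counting are not given in the sources used here, and a batch could not be modeled. Column names with ZT-12 and ZT-8 were matched to the samples of ZT12 and ZT16. Nothing says that the replicates came from separate cultures, so p-values measure only the spread between these samples.

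Counts as deposited were fitted with edgeR 4.0.16 (quasi-likelihood F test, TMM scaling, filterByExpr) in R 4.3.3 with limma 3.58.1, in 3 fits: the libraries labelled *ss4* and WT at 17°C (32 libraries, 20692 genes), the starch mutants with WT (16 libraries, 20130 genes), and liquid culture (16 libraries, 20291 genes). P-values were adjusted by the Benjamini-Hochberg method over all genes of a fit, with a threshold of 0.05. The WT courses at 22°C and 27°C have 1 library per point and no count files were used for them, so TPM was compared as log2(TPM + 1) with a difference of 1 or more counted, and with limma over all 8 times. Alternatives were DESeq2 1.42.0, other scalings, other filters, only the groups compared, the replicate number as a block, and each library left out. Added after seeing the data were the limma test, scaling by library size alone, the fit of the 8 untreated and mock libraries, and the tests of change between ZT0 and ZT2 in *pgm*, *ss3/4*, and *ss3/4/pgm*. The fits were tested on simulated data. Tables and sequences were handled with Python 3.11.15, pandas 2.3.3, numpy 2.4.6, scipy 1.17.1, and Biopython 1.88, and 32810 genes matched the RefSeq annotation (TAIR10.1).

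The members, the partner lists, and the tests were chosen with earlier results of these data known. All 9 members are named. For HSP70, HSC70-1, cpHSC70-1, and mtHSC70-1 the 3 most correlated genes are named, and partners are named where they had the largest rise or fall past the threshold in a comparison. SS4, SS3, and PGM were read as a check of the labels. With 3204754 to 19679912 counts per library, intervals from counts cover counting error only. Replicates differed by more than sampling noise (chi-square per degree of freedom 2.65–209), so none were merged.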

Additional observations from a re-analysis of the deposited data

Results flagged for a closer look

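For several members the difference from WT at 17°C changed between ZT0 and ZT2, by a test of the change itself (edgeR, BH over all genes, log2 scale, difference at ZT2 minus difference at ZT0). In the libraries labelled *ss4* the change was 2.54 for HSP70 and 2.96 for HSP70-5, and HSC70-3 (0.76) passed in DESeq2. In *pgm* it was 0.70 for HSC70-1, 1.81 for HSC70-2, 2.06 for HSC70-3, 1.37 for HSP70, 0.77 for cpHSC70-2, 0.87 for mtHSC70-1, and 0.87 for mtHSC70-2, where 31.2% of all genes were called and 14.4% upward. The call of HSC70-2 was lost in DESeq2 (1.83), without *pgm* ZT0 replicate 1 (0.85), and without *pgm* ZT2 replicate 2 (1.70), and that of HSP70 without *pgm* ZT0 replicate 1 (1.07). In *ss3/4* it was 1.17 for HSC70-3, 3.31 for HSP70, 3.87 for HSP70-5, 0.62 for cpHSC70-2, and 1.45 for mtHSC70-2, where 22.2% of all genes were called and 9.35% upward. In *ss3/4/pgm* it was 0.67 for HSC70-1, 1.77 for HSC70-3, 1.27 for HSP70, 0.78 for cpHSC70-2, 0.78 for mtHSC70-1, and 0.94 for mtHSC70-2, where 33.5% of all genes were called and 15.7% upward. Scaling by library size alone, in place of TMM, put 75.2% (*pgm*), 77.4% (*ss3/4*), and 64.2% (*ss3/4/pgm*) of the calls among all genes upward, against 46.2%, 42.1%, and 46.8% with TMM. All of these changes were upward, and those of the 3 starch mutants share the WT libraries and were tested after seeing the data. HSP70-5 had no call of this kind in *pgm* or *ss3/4/pgm*, and cpHSC70-1 had none in any mutant.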

How the results depend on the processing

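For the libraries labelled *ss4* against WT, calls of members were summed over the 8 times. The 3 calls (HSP70 at ZT2 and ZT4, and HSP70-5 at ZT2) became 6 without the filter on low counts and 5 in DESeq2. They became 9 with only the compared groups in the fit, and 3 to 5 with 1 library left out. The 2 calls for the change of this difference between ZT2 and ZT0 became 3 in DESeq2, without the filter on low counts, and with only the compared groups, and 1 or 2 with 1 library left out. With 1 library left out, WT against ZT0 gave 10 to 11 calls (11 with all), time of day 7 to 8 (8), the starch mutants against WT 43 to 49 (47), *ss3/4* against *ss3/4/pgm* 8 to 11 (11), and each liquid culture comparison 0 to 0. In liquid culture, 27°C against 22°C gave 0 calls with all 16 libraries, 16 with only the compared groups, and 16 with the 8 untreated and mock libraries, and mock against untreated gave 0, 1, and 1. The difference of HSP70 turned round without replicate 2 of WT, at ZT12 in the libraries labelled *ss4* (1.15, against −0.95 without replicate 1) and at ZT2 in *pgm* (0.20, against −0.48) and *ss3/4/pgm* (0.29, against −0.40), and those 3 turned values were not called. The median cytosolic share was 74.1% from TPM and 72.1% from counts without length scaling, over the count libraries. Scaling by library size alone moved the median of all genes in the inhibitor comparisons by −0.12 to −0.22 and put 14.9%–22.2% of their calls on the higher side, against 33.5%–44.2% with TMM. It put 29.4% and 28.1% of the calls of *pgm* and *ss3/4/pgm* at ZT2 on the higher side, against 48.0% and 47.6%. For 27°C against 22°C over the day, 4 calls stayed 4 with a pseudocount of 0.1 and with no minimum TPM and were 4 to 5 with 1 time left out. The causes were not tested.

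Samples with the same replicate number did not deviate together in all pairs. Correlations were −0.03 to 0.15, −0.09 to 0.17, and −0.08 to 0.20 between groups compared in the 3 fits. Of these, 5 of 10, 1 of 8, and 4 of 8 were over 0.1. Between all groups they were −0.15 to 0.19, −0.09 to 0.17, and −0.86 to 0.86. These mixed values do not settle whether samples of a number were paired. With the number as a block the counts of calls did not move and 135 of 135 member results kept their call. Over the named results of members, DESeq2 kept 128 of 135, fitting only the compared groups 105 of 135 (26 newly called and 4 lost), and leaving out a library 685 of 732. Of the 12 most correlated genes 4 were found again by Spearman correlation. HSP70 and HSC70-2 had few reads at ZT0 in the mutants, which limits what can be said of them there, and the WT courses at 22°C and 27°C have no replicates.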
